A study of Mus musculus with 30 samples.

Results

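GMP-MoP and proNeu1, a pair of myeloid progenitor populations sorted from mouse bone marrow, were compared after exposure to LPS. GMP-MoP is a monocyte progenitor of the granulocyte-monocyte progenitor route, to which the series title ascribes genes of both lineages, and proNeu1 is an early committed neutrophil progenitor. The members are the 3 libraries labelled LPS GMP-MoP and the 3 labelled LPS proNeu1, which makes 6 of the 30 libraries of the series. All were wild-type, carried the time label of 2 days and came from bone marrow progenitor cells. The labels do not give the route or dose of LPS, the sort gates, or the age and sex of the mice. Naive GMP-MoP and naive proNeu1, with 3 wild-type libraries each and no LPS, served as the reference comparison and share no library with the LPS comparison. LPS is lipopolysaccharide, the outer membrane component of Gram-negative bacteria that is sensed through TLR4. Nothing beyond the replicate number says that libraries of a group came from separate mice. The p-values therefore measure the spread between libraries within groups, estimated over all 30 libraries of the series. RNA was sequenced in bulk, and values are FPKM, fragments per kilobase of exon scaled to library depth, for 11383 genes. The 6 libraries held 25 to 38.8 M assigned reads, so 1 FPKM of a gene of 2000 bases stood for 50.1 reads in the shallowest.

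Monocytes and neutrophils arise from shared bone marrow progenitors. IRF8 and KLF4 drive the monocyte branch, while C/EBP-epsilon and GFI1 drive granule formation on the neutrophil branch. Neutrophil granules are made in order: primary (azurophil) granules with myeloperoxidase and elastase at the promyelocyte stage, then secondary and tertiary granules with lactoferrin, cathelicidin and gelatinase. Infection and LPS raise the marrow's output of both lineages, a response known as emergency myelopoiesis.

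The difference between the populations after LPS ran along these lineages. GMP-MoP held more mRNA of monocyte regulators, monocyte surface receptors and lysosomal proteases, and proNeu1 held more mRNA of secondary granule proteins, calprotectin and the neutrophil regulators Cebpe and Gfi1. Primary granule mRNAs such as Mpo and Elane were abundant in both. A gene was called where limma gave a Benjamini-Hochberg adjusted p under 0.05 and the log2 fold change on log2(FPKM + 1) was at least 1 in size, that is a fold of 2. By this rule 300 genes were higher in LPS GMP-MoP (2.64% of the 11383 tested) and 401 were lower (3.52%), together 701 (6.16%). These shares of all genes are the ones to set beside each limma count of a gene list after LPS. The lower genes had the wider range: 43 of them differed at least 8-fold and 18 at least 16-fold, against 8 and 1 of the higher genes. These counts of lower genes are not of neutrophil genes alone. They include immunoglobulin genes such as Igkv14-126, Jchain and Iglv1, with log2 fold changes of -5.66, -5.05 and -4.48. The median size of the log2 fold change was 1.4 over the higher genes and 1.59 over the lower genes. Over all genes the median log2 fold change was 0.09. Of the 701 called genes, 694 had groups that did not overlap, where 57.3% of all genes had such groups. In these bulk samples, fewer cells of a type and less RNA per cell cannot be told apart.

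3 features of the libraries touch these counts. Immunoglobulin mRNAs were abundant in LPS proNeu1: the summed FPKM of 74 immunoglobulin genes including Jchain was 2636, 2314 and 796 in its 3 libraries and 148, 186 and 139 in LPS GMP-MoP. Of these 74 genes, 64 were called lower in GMP-MoP, and without them the count of lower genes was 337. Globin mRNAs marked the libraries numbered 2 of both populations, at 118 summed FPKM in LPS GMP-MoP and 160.3 in LPS proNeu1, where the other 4 LPS libraries held 3.91 to 10.9. With both libraries numbered 2 left out, 281 genes were higher and 355 lower, and 610 of the 701 calls stood in the same direction. Calprotectin mRNA varied among the LPS proNeu1 libraries, with 27749, 40651 and 17758 FPKM for S100a8 and S100a9 together. Across genes the replicates of LPS GMP-MoP correlated at 0.991 to 0.992 and those of LPS proNeu1 at 0.988 to 0.99, and libraries of different populations at 0.936 to 0.957.

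**Figure D1:**
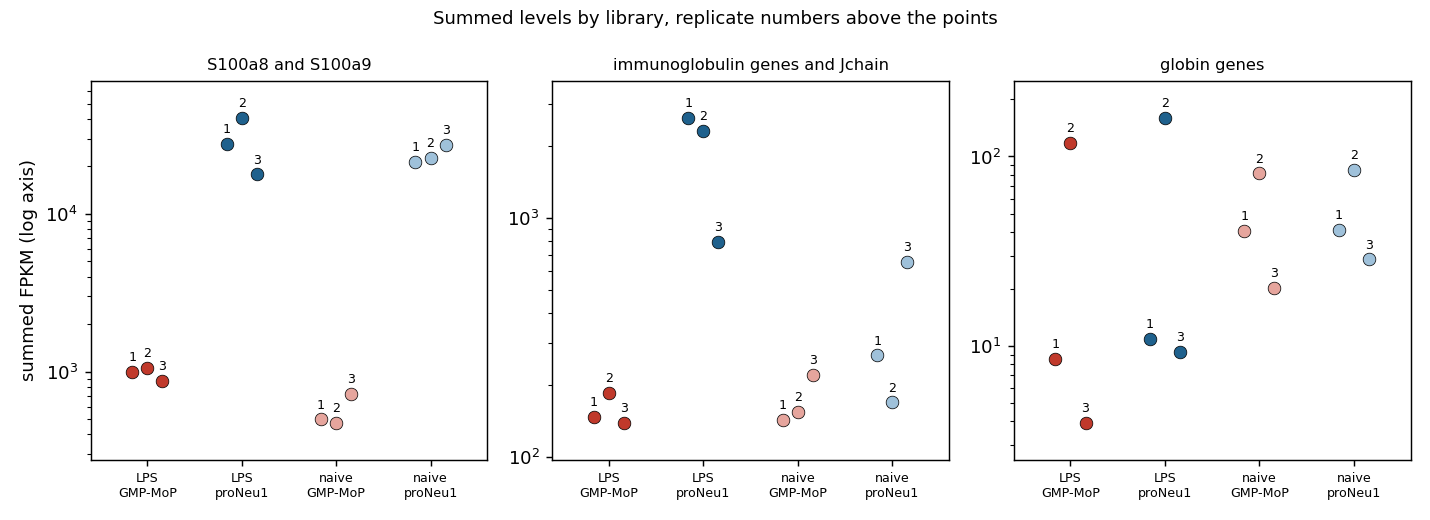
Summed FPKM (log axis) of S100a8 and S100a9, of 74 immunoglobulin genes including Jchain, and of the globin genes in each library, with replicate numbers above the points. The 3 LPS proNeu1 libraries hold 796 to 2636 immunoglobulin FPKM against 139 to 186 in LPS GMP-MoP, and the globin sum is highest in replicate 2 of each group.

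The transcription factors of the monocyte branch gave the greatest rise. Irf8 (chromosome 8, 120736358 to 120756694, GRCm38), which directs progenitors toward monocytes and dendritic cells, stood at 174, 176 and 146 FPKM in LPS GMP-MoP and at 8.77, 7.34 and 7.68 in LPS proNeu1. Every GMP-MoP library was far above every proNeu1 library, with a log2 fold change of 4.22 ± 0.18 (SE) and an adjusted p of 2.85e-15, the greatest rise of any gene named by rule. Klf4 (chromosome 4, 55527143 to 55532466), a zinc finger factor needed for Ly6C-high monocytes, stood at 21.2, 28.5 and 21.8 FPKM against 0.695, 0.723 and 0.652. This was a log2 fold change of 3.87 ± 0.18 and the groups did not overlap. Of 9 measured monocyte-lineage regulators, 5 were higher in GMP-MoP and 1 was lower, with a median log2 fold change of 1.53. The other higher ones were Irf5, a factor of inflammatory cytokine transcription (16.3 ± 1.60 against 1.5 ± 0.314 FPKM, mean ± SD, n = 3), Pou2f2, an octamer-binding factor (12.1 ± 0.786 against 1.65 ± 0.141), and Zeb2, a repressor required for monocyte and dendritic cell identity (19.6 ± 2.32 against 6.13 ± 0.711). Id2, an inhibitor of E proteins that also acts in monocyte and dendritic development, ran the other way. It was at 4.80, 4.12 and 4.99 FPKM in GMP-MoP and at 29.3, 39.6 and 25.2 in proNeu1, lower in every GMP-MoP library by 2.5 on the log2 scale (SE 0.22).

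**Figure D2:**
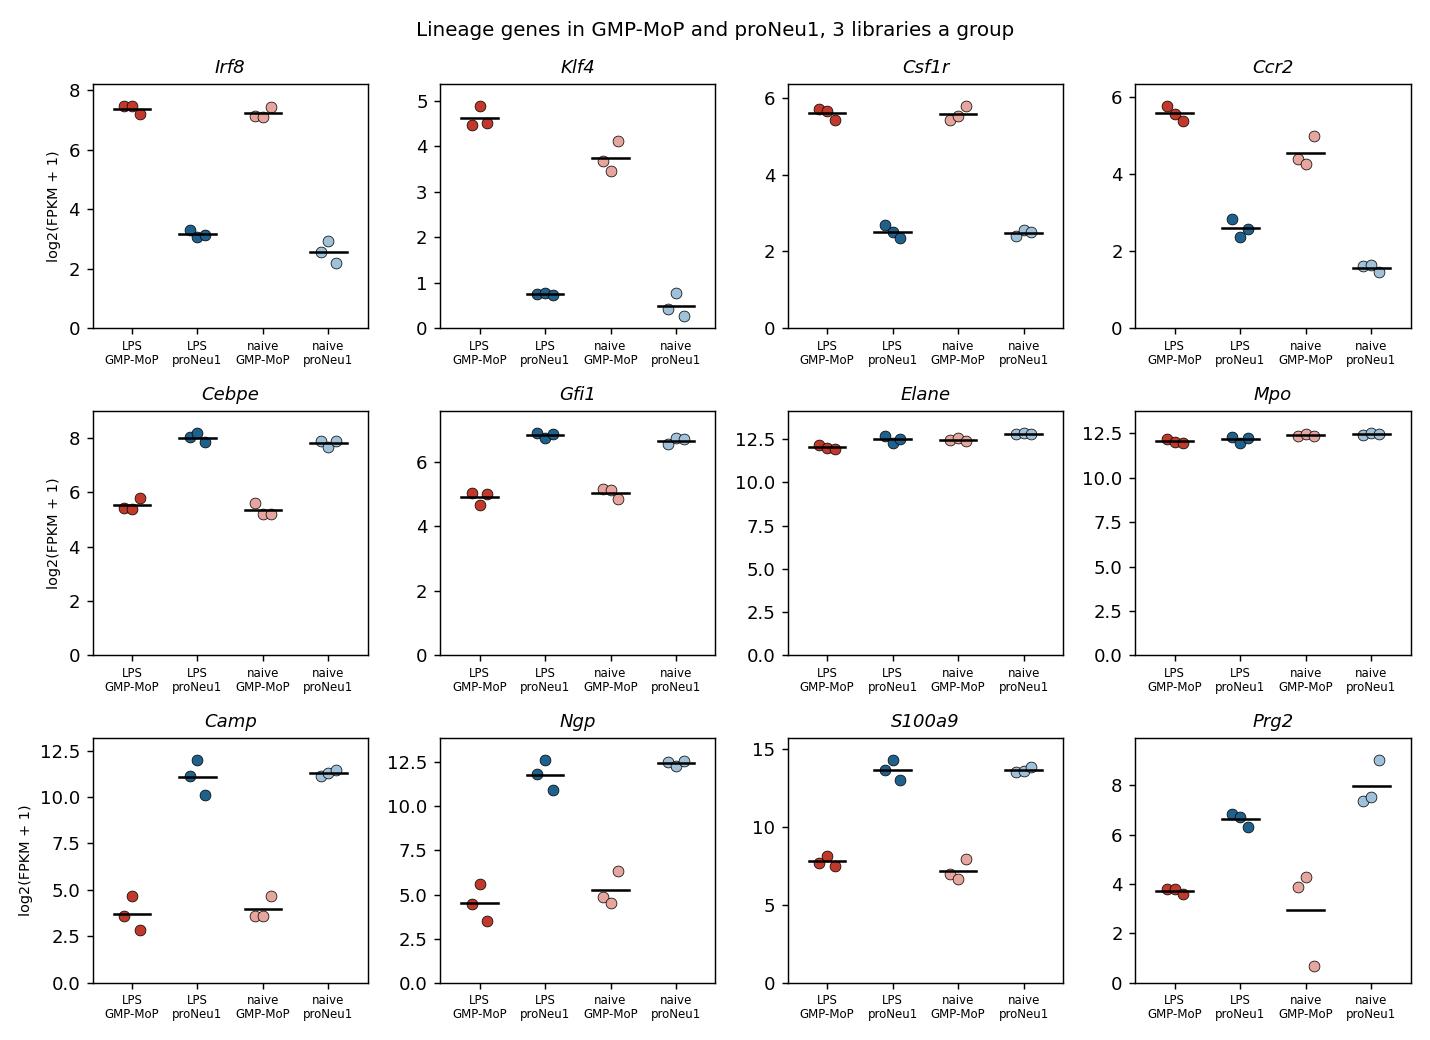
log2(FPKM + 1) of 12 lineage genes in the 3 libraries of each group (points) with the group mean (line). After LPS the GMP-MoP libraries lie above the proNeu1 libraries for Irf8, Klf4, Csf1r and Ccr2 and below them for Cebpe, Gfi1, Camp, Ngp, S100a9 and Prg2, while Mpo overlaps.

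Surface receptors of monocytes followed the same direction. Csf1r, the receptor for macrophage colony-stimulating factor (chromosome 18, 61100598 to 61132149), was at 51.4, 49.0 and 42.1 FPKM in LPS GMP-MoP and 5.43, 4.66 and 4.14 in LPS proNeu1. Ccr2 (chromosome 9, 124101950 to 124113557), the chemokine receptor by which monocytes leave the marrow, was at 53.7, 46.5 and 40.9 against 6.19, 4.18 and 4.99. Both differed about as strongly, by 3.08 ± 0.11 and 2.98 ± 0.18 on the log2 scale, and neither overlapped. Of 22 measured monocyte markers, 15 were higher and 1 was lower in GMP-MoP, with a median log2 fold change of 1.52, where over all genes 2.64% were called higher. Ly86, which encodes MD-1, the partner of the B cell and myeloid receptor CD180, was at 82.6 ± 12.6 against 6.91 ± 0.732 FPKM. Ms4a6c, a membrane protein of the tetraspanning MS4A family, was at 147 ± 12.9 against 18 ± 2.52. F13a1, the coagulation factor XIII subunit made by monocytes, was at 304 ± 51.7 against 80.7 ± 11.2. Ly6c2, which encodes the surface antigen Ly6C, did not pass. It stood at 2572, 2319 and 2158 FPKM in GMP-MoP and 1930, 1483 and 1546 in proNeu1, groups that did not overlap but whose log2 fold change was 0.51 ± 0.25 (adjusted p = 0.0937). The marker called lower was Cybb, the catalytic subunit of the phagocyte oxidase, at 80.4 ± 5.01 against 185 ± 48.5 FPKM. Without proNeu1 replicate 2 its log2 fold change was -0.98, which is under the fold threshold in size. MS4A6 genes and the interferon-inducible genes of the Ifi200 cluster have close copies, so their values depend on how the authors assigned shared reads.

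Among 25 growth factor and cytokine receptors, 5 were higher and 1 was lower in GMP-MoP. Besides Csf1r, the higher ones were Il6st (gp130, the signalling chain for interleukin 6; 11.7 ± 0.938 against 0.871 ± 0.0325 FPKM), Il6ra, its ligand-binding partner (23.6 ± 0.763 against 6.94 ± 0.619), Il10ra, a chain of the interleukin 10 receptor (6.85 ± 0.456 against 0.530 ± 0.0980), and Flt3, a receptor of early progenitors (2.52 ± 0.791 against 0.588 ± 0.170). Both chains for interleukin 6 were thus higher in every GMP-MoP library than in any proNeu1 library. Flt3 was at 0.96 on the log2 scale without GMP-MoP replicate 1, under the fold threshold. Il1r2, the decoy receptor for interleukin 1, was the one called lower, at 1.12, 1.28 and 0.844 FPKM against 16.5, 17.9 and 14.6. Csf3r, the receptor for granulocyte colony-stimulating factor, was at 50.9 ± 4.50 against 88.8 ± 7.24 FPKM, with non-overlapping groups and a log2 fold change of -0.79 ± 0.09 that stayed under the fold threshold. Kit, the stem cell factor receptor, was at 37.5 ± 3.52 against 39.1 ± 3.61 FPKM and overlapped, with an adjusted p of 0.57.

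Genes of adhesion and homing divided between the populations. Of 18 measured, 6 were higher and 4 lower in GMP-MoP. Itgb7, an integrin beta chain of gut-homing cells, was at 8.41 ± 1.51 against 1.03 ± 0.114 FPKM, and Ccr2 and the fractalkine receptor Cx3cr1 (5.53 ± 1.68 against 1.23 ± 0.338) were also higher. So were Pecam1 (31.1 ± 2.7 against 10.4 ± 1.06) and Selplg, the P-selectin ligand (171 ± 9.98 against 73.7 ± 4.09). The lower ones held the leukocyte integrin chains Itgam (CD11b; 4.19 ± 0.882 against 23.2 ± 5.87) and Itgb2 (CD18; 45.6 ± 3.40 against 136 ± 26.3), with Vcam1 and the neutrophil chemokine receptor Cxcr2. Cxcr4, the receptor that holds progenitors in the marrow, was not called, at 172 ± 9.44 against 135 ± 7.34 FPKM.

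Several lysosomal proteases and antigen-processing genes were higher in GMP-MoP. Of 17 lysosomal genes, 5 were higher, with a median log2 fold change of 0.60. Ctss, cathepsin S, which degrades the invariant chain in antigen-presenting cells (chromosome 3, 95526786 to 95556403), was at 30.9, 37.0 and 30.1 FPKM in LPS GMP-MoP and 4.07, 4.14 and 2.99 in LPS proNeu1. Ctsc, the cathepsin that activates granule serine proteases, was at 54.4, 77.7 and 66.2 against 8.4, 9.67 and 11.1. For both, every GMP-MoP library was above every proNeu1 library, and the log2 fold changes were 2.83 ± 0.25 and 2.64 ± 0.11. Ifi30, the interferon-inducible thiol reductase GILT, was at 33.0 ± 7.69 against 5.27 ± 0.429 FPKM, and Ctsh, cathepsin H, at 76.9 ± 7.21 against 18.7 ± 5.16. Psap, the sphingolipid activator precursor, was the other higher member. Among 12 dendritic cell and MHC class II genes, H2-DMa (16.9 ± 2.20 against 4.78 ± 0.595) and H2-DMb1 (16.3 ± 1.5 against 6.68 ± 0.886), the chains of the peptide-loading chaperone, were higher together with Flt3. Cd74, the invariant chain, was lower, at 0.643 ± 0.420 against 4.38 ± 1.77 FPKM. The other 8 were not called, among them the class II chains H2-Aa, H2-Ab1 and H2-Eb1, and the list's median log2 fold change was 0.08. On the recovered reads with voom, Cd74 had a log2 fold change of -2.87 with an adjusted p of 0.103 and was not called.

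Interferon-linked genes did not move as 1 block. Of 26 type I interferon-stimulated genes, 4 were higher and 2 lower, with a median log2 fold change of -0.11, and of 19 interferon-gamma and GTPase genes 3 were higher and 16 were not called, with a median of 0.28. Ifi209, a member of the Ifi200 family of nucleic acid-binding proteins, stood at 59.4, 59.4 and 52.1 FPKM in GMP-MoP and at 4.01, 3.29 and 4.37 in proNeu1, a log2 fold change of 3.57 ± 0.15 with no overlap. Its family members Ifi203 (20.1 ± 1.29 against 2.75 ± 0.393) and Ifi204 (4.76 ± 0.605 against 0.490 ± 0.0339) were higher too, as was the antiviral GTPase Mx1 (1.59 ± 0.0844 against 0.137 ± 0.111). Lower in GMP-MoP were Ddx58, which encodes the RNA sensor RIG-I (2.08 ± 0.568 against 9.88 ± 1.32 FPKM), and Oas2, an oligoadenylate synthetase (0.955 ± 0.840 against 4.67 ± 2.30). The guanylate-binding proteins, GTPases that attack vacuoles of intracellular microbes, gave the interferon-gamma calls: Gbp5 (10.6 ± 0.819 against 3.27 ± 0.681), Gbp3 (37.3 ± 1.35 against 15.2 ± 1.70) and Gbp2 (4.70 ± 0.568 against 1.78 ± 0.555). Gbp2 lay at the threshold, with a log2 fold change of 0.99 under median-of-ratios scaling and 0.88 without proNeu1 replicate 2. In the Ifitm family of membrane proteins that restrict virus entry, Ifitm1 was higher (51.8, 94.2 and 81.7 FPKM against 17.1, 39.7 and 41.8) and Ifitm6 lower (7.99, 10.1 and 5.91 against 105, 139 and 80.1). Ifitm1 was not called without proNeu1 replicate 1, at 0.84 on the log2 scale.

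Of 17 LPS sensing genes measured, 3 were higher (17.6%, where 2.64% of all genes were) and 14 were not called, with a median log2 fold change of -0.03. At an unadjusted p under 0.05, 6 were higher and 5 lower. The higher ones were Ly86, its receptor partner Cd180, a homologue of TLR4 (12.4, 11 and 10.8 FPKM against 2.59, 2.40 and 2.48), and Ticam2, the adaptor TRAM that links TLR4 to interferon induction (11, 10.9 and 9.46 against 4.50, 3.63 and 3.6). Neither Cd180 nor Ticam2 overlapped between the groups. Tlr4 itself was at 5.34 ± 0.425 against 8.65 ± 0.199 FPKM and Cd14, the LPS co-receptor, at 7.16 ± 1.61 against 3.54 ± 0.282. Neither passed the fold threshold. Of 19 NF-kB and inflammatory genes 1 was higher and 2 lower. The inflammasome sensor Nlrp3 was at 2.47 ± 0.523 against 0.133 ± 0.105 FPKM. The NF-kB inhibitor Nfkbia was at 14.1 ± 2.40 against 33.9 ± 4.16 FPKM and the cytokine Tnf at 1.38 ± 0.121 against 4.11 ± 0.789, with adjusted p-values of 0.00577 and 0.0271. Neither of these 2 was called with both libraries numbered 2 left out (adjusted p = 0.0857 and 0.125), and Tnf was lost in 5 of the 6 fits that left out a single library. For both genes the LPS groups did not overlap. The spread in limma was shared by all 30 libraries, and naive GMP-MoP replicate 2 stood apart. It held 16.5 FPKM of Tnf, against 1.86 and 1.67 in the other naive GMP-MoP libraries. For Nfkbia it held 89.8 against 15.9 and 17.8. The part of this library in the lost calls was not tested.

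Lectin and Fc receptors gave 1 higher and 3 lower members of 13. Clec7a, dectin-1, the receptor for fungal beta-glucan, was at 38.2, 35.0 and 32.6 FPKM in GMP-MoP against 6.5, 5.87 and 5.57. The lower ones were Clec4a2, an inhibitory C-type lectin (9.65 ± 1.92 against 41.1 ± 12.4), the inhibitory receptor Pirb (1.98 ± 0.334 against 6.20 ± 2.59) and Fcgr4, a receptor for immunoglobulin G (4.21 ± 0.692 against 9.95 ± 0.693). Pirb and Fcgr4 were near the fold threshold: Pirb was at -0.95 on the log2 scale without proNeu1 replicate 2, and Fcgr4 at -0.97 without GMP-MoP replicate 2.

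Secondary and tertiary granule mRNAs gave the widest differences of the comparison. Camp, the cathelicidin antimicrobial peptide (chromosome 9, 109847379 to 109849617), stood at 11.1, 24.1 and 6.16 FPKM in LPS GMP-MoP and at 2222, 4052 and 1090 in LPS proNeu1. The lowest proNeu1 library was still far above the highest GMP-MoP library, and the log2 fold change was -7.37 ± 0.68 (adjusted p = 2.81e-09). Ngp, neutrophilic granule protein (chromosome 9, 110419747 to 110423012), was at 21.2, 48.0 and 10.5 against 3615, 6286 and 1911. Ltf, lactoferrin, the iron-binding protein of secondary granules (chromosome 9, 111019271 to 111042767), was at 6.57, 14.8 and 4.18 against 893, 1483 and 446. In both populations the 3 genes were highest in the library numbered 2 and lowest in the one numbered 3. Lcn2, the siderophore-binding lipocalin, differed less, at 108, 141 and 123 FPKM against 1333, 2132 and 845. Of 23 measured secondary and tertiary granule genes, 22 were lower in GMP-MoP, with a median log2 fold change of -2.47, where 3.52% of all genes were lower. Chil1, a chitinase-like protein, was at 0.362 ± 0.104 against 41.9 ± 19.5 FPKM and Orm1, orosomucoid, at 0.543 ± 0.114 against 22.1 ± 10.2. The list's 1 member that was not called was Mmp8, neutrophil collagenase, which was low in both at 2.33 ± 0.674 and 2.23 ± 1.96 FPKM.

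Calprotectin, the S100A8 and S100A9 dimer that is the main cytosolic protein of neutrophils, gave the most abundant mRNAs of LPS proNeu1. S100a8 (chromosome 3, 90668978 to 90670035) was at 786, 773 and 690 FPKM in GMP-MoP and 14680, 20627 and 9359 in proNeu1. S100a9 (chromosome 3, 90692632 to 90695721) was at 209, 276 and 183 against 13070, 20024 and 8400. GMP-MoP was lower in every library, by 4.24 (SE 0.57) and 5.88 (SE 0.66) on the log2 scale. The S100 genes did not share a direction: S100a10, the annexin A2 partner, was higher in GMP-MoP (106 ± 10.5 against 18.8 ± 1.92 FPKM), and S100a6 was lower (6.42 ± 0.990 against 17.8 ± 4.02).

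Other genes of late neutrophil stages followed. Of 14 mature neutrophil genes, 8 were lower in GMP-MoP, with a median log2 fold change of -1.5. Ly6g, the neutrophil surface antigen, was at 0.153, 0.860 and 0.339 FPKM against 15.8, 31.6 and 4.27, without overlap. Mmp25, a membrane metalloproteinase (0.131 ± 0.0890 against 6.49 ± 3.96), and the formyl peptide receptor Fpr2 (0.400 ± 0.0809 against 7.99 ± 4.60) were low in GMP-MoP and moderate in proNeu1. Cd177, a neutrophil surface glycoprotein that binds PECAM1 (6.23 ± 0.565 against 179.9 ± 81.0), and Lrg1, leucine-rich glycoprotein 1 (6.96 ± 0.636 against 81.4 ± 13.9), were lower by 4.55 (SE 0.43) and 3.36 (SE 0.25) on the log2 scale. Itgb2l, an integrin beta 2-like gene, was at 0.424 ± 0.142 against 52.1 ± 25.9 FPKM. Of 7 NADPH oxidase genes, Cybb and the cytosolic organizer Ncf1 (195 ± 5.59 against 423 ± 19.7) were called lower. Without proNeu1 replicate 2, 1 of the 7 was called.

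Primary granule mRNAs formed the contrast to this. Mpo, myeloperoxidase (chromosome 11, 87793581 to 87804413), stood at 4546, 4111 and 4002 FPKM in LPS GMP-MoP and 5090, 3995 and 4767 in LPS proNeu1, and the groups overlapped (log2 fold change -0.12 ± 0.10, adjusted p = 0.309). Elane, neutrophil elastase (chromosome 10, 79886247 to 79888215), was at 4643, 4009 and 3851 against 6539, 5027 and 5883. Here every GMP-MoP library was below every proNeu1 library, but the difference, 0.48 lower on the log2 scale (SE 0.15), stayed under the fold threshold. Prtn3, proteinase 3, was at 5011 ± 192 against 5984 ± 639.9 FPKM, and Ms4a3, a membrane protein of granulocyte-monocyte progenitors, at 705 ± 6.35 against 1089 ± 83.8. Of 11 measured primary granule genes 1 was called lower, Serpinb1a, an inhibitor of the granule serine proteases (276 ± 29.1 against 591 ± 14.8 FPKM), and the median log2 fold change was -0.48. Under median-of-ratios scaling 2 were called. The summed FPKM of the 11 genes was 18048 to 19951 in GMP-MoP and 21136 to 26035 in proNeu1, while that of the 23 secondary and tertiary granule genes was 1461 to 1664 and 8457 to 22189.

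The regulators of the neutrophil branch were lower in GMP-MoP but not absent from it. Cebpe, C/EBP-epsilon, the factor of secondary granule genes (chromosome 14, 54710360 to 54712174), was at 41.5, 41.1 and 54.5 FPKM against 257, 287 and 226. Gfi1, a repressor that opposes monocyte genes (chromosome 5, 107716657 to 107726036), was at 31.6, 24.6 and 31 against 118, 105 and 115. Neither pair of groups overlapped, and the log2 fold changes were -2.47 ± 0.13 and -1.93 ± 0.13. Of 12 neutrophil-lineage regulators 5 were lower and 7 were not called. The other 3 were Ets1 (3.06 ± 0.743 against 28 ± 4.18 FPKM), an ETS family factor, Klf5 (0.179 ± 0.0383 against 4.71 ± 1.59) and the circadian gene Per3 (3.39 ± 0.296 against 10.4 ± 0.634). Of 8 C/EBP family and partner factors only Cebpe was called. Cebpa, required for granulocyte-monocyte progenitors, was at 113 ± 0.572 against 104 ± 8.73 FPKM, Cebpb, the C/EBP factor of emergency granulopoiesis, at 124 ± 11.1 against 112 ± 5.67, and Spi1, which encodes PU.1, at 168 ± 9.25 against 194 ± 2.19.

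Promoter sequences are given for genes of the lists that moved together and for those that did not. They are the 250 bases before the RefSeq start of each gene on build GRCm38.p6, read on the gene's strand. Capitals mark matches, on either strand, to a C/EBP motif (TTGCNNAA), an ETS motif (GAGGAAGT), an ETS-IRF motif (GGAA, any 2 bases, GAAA) or an interferon response motif (GAAA, any 2 bases, GAAA). The printed genes were chosen after their matches were seen. Ngp, Ltf and Lcn2 are secondary granule genes that were lower in GMP-MoP and held a C/EBP match, while the windows of Camp, Chil1, Cd177, Itgam, Lrg1 and Cybb, of the same list, held none. The capitals are C/EBP matches, on the minus strand in Ltf and in the second match of Ngp.
Ngp (chr9:110419558-110419807, plus strand): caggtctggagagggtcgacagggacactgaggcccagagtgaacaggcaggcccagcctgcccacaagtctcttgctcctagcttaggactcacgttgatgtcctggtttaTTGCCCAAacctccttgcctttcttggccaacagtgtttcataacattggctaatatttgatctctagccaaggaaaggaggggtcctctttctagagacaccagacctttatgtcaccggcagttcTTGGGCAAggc
Ltf (chr9:111019042-111019291, plus strand): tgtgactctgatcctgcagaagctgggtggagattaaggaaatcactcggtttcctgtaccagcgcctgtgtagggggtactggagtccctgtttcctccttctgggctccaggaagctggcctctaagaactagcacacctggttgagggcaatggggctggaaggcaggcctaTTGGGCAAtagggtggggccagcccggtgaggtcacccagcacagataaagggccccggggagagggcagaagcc
Lcn2 (chr2:32387740-32387989, minus strand): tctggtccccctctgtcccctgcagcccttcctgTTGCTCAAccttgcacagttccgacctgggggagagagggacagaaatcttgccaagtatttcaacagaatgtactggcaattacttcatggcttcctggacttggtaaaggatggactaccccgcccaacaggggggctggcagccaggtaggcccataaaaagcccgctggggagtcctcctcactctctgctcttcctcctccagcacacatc
Elane and Prtn3 are primary granule genes that were not called, and their capitals are ETS matches.
Elane (chr10:79886062-79886311, plus strand): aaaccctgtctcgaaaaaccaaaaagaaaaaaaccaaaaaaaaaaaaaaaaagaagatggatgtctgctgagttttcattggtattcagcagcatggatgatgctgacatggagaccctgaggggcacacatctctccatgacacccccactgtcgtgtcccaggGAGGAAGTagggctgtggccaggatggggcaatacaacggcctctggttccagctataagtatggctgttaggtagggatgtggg
Prtn3 (chr10:79879417-79879666, plus strand): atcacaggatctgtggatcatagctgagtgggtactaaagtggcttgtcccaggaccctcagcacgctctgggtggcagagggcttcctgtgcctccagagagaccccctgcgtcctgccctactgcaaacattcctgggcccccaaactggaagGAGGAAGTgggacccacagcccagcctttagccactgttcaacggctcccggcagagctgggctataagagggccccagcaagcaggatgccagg
Irf8, Ctss and Gbp3 were higher in GMP-MoP. The Irf8 window held no match. The Ctss capitals are an interferon response match, and an ETS match of Ctss that crosses the start is not shown. In Gbp3 the first capitals are a C/EBP match and the second run holds 2 interferon response matches that overlap, all on the minus strand.
Irf8 (chr8:120736108-120736357, plus strand): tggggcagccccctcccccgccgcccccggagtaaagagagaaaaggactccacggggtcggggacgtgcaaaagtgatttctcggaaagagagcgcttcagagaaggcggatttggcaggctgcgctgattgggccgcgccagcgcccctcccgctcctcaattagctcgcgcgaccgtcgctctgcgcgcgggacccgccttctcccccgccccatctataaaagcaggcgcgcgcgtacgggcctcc
Ctss (chr3:95526536-95526785, plus strand): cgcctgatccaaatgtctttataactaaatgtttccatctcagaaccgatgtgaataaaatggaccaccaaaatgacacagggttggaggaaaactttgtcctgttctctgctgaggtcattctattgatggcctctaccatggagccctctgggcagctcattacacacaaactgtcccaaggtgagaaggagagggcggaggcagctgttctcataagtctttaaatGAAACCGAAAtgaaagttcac
Gbp3 (chr3:142559794-142560043, plus strand): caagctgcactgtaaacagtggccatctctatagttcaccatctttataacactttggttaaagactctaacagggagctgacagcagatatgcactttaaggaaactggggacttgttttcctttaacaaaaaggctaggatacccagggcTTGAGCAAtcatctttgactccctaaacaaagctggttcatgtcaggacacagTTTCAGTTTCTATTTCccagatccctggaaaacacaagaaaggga

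A promoter was found for 8472 of the 11383 genes tested by symbol, taking the first start listed and the 300 bases from 250 before to 50 after it. Of these windows 8.38% held the C/EBP motif, against 14.4% of the 257 lower genes and 11% of the 227 higher genes with a promoter. The ETS motif was in 3.47% of all windows, in 6.61% of those of lower genes and in 8.37% of those of higher genes. ETS-IRF matches were in 2.38% of all, 3.89% of lower and 3.96% of higher genes, and interferon response matches in 3.18%, 3.89% and 7.93%. The last 2 motifs share letters and can match at the same place. These shares are a description, carry no test, and say nothing about binding.

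**Figure D3:**
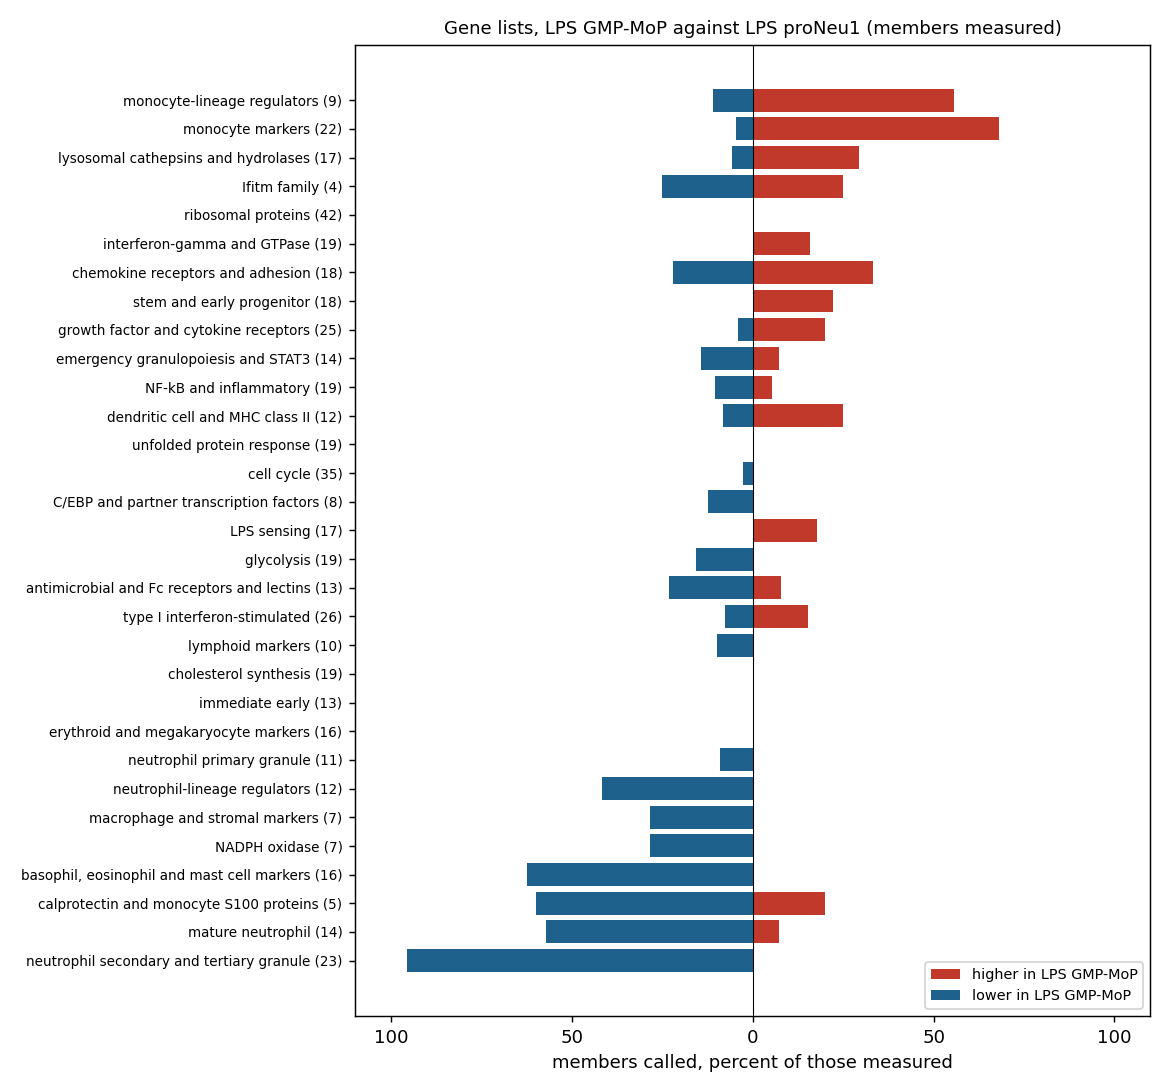
Share of the measured members of 31 gene lists called higher (right) or lower (left) in LPS GMP-MoP against LPS proNeu1, ordered by the list's median log2 fold change, with the number measured in brackets. Of 23 secondary and tertiary granule genes 22 were lower and of 22 monocyte markers 15 were higher, while lists such as ribosomal proteins had no called member.

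Most genes of growth and metabolism were not called. None of 42 ribosomal protein genes, 19 cholesterol synthesis genes, 19 unfolded protein response genes and 13 immediate early genes was called by limma or by voom in either direction. At an unadjusted p under 0.05, 35 ribosomal protein genes were higher, 3 cholesterol genes were higher and 5 lower, 4 unfolded protein response genes were higher and 1 lower, and 1 immediate early gene was lower. Their medians on the log2 scale were 0.29, -0.14, 0.05 and -0.33, beside 0.09 over all genes. Of 35 cell cycle genes 1 was called lower (2.86%, beside 3.52% of all genes), the E2F transcription factor E2f2, at 9.60 ± 1.08 against 27.8 ± 6.47 FPKM. Mki67, the proliferation antigen, was at 73.0 ± 1.73 against 91.4 ± 17.9 FPKM. Of 19 glycolysis genes 3 were lower in GMP-MoP (15.8%): the glucose transporter Slc2a3 (1.94 ± 0.204 against 12.6 ± 4.64), the regulator Pfkfb4 (5.49 ± 0.617 against 21.8 ± 2.27) and the lactate exporter Slc16a3 (7.09 ± 0.746 against 22.1 ± 0.527). Of 14 emergency granulopoiesis and STAT3 genes 1, Il6ra, was higher and 2, Lrg1 and Cd177, were lower. Of 18 stem and early progenitor genes 4 were higher and 14 were not called: Cd34, a surface sialomucin of early progenitors (43.7 ± 6.45 against 7.94 ± 1.44 FPKM), Sox4 (16.7 ± 3.00 against 5.93 ± 0.993), Cd27 (11.9 ± 2.73 against 5.03 ± 1.23) and Flt3. Cd27 lay at the threshold, at 0.95 on the log2 scale without GMP-MoP replicate 1 and 0.94 without proNeu1 replicate 2. Further genes among the greatest rises were Tpm4, a tropomyosin (28.7 ± 2.78 against 2.17 ± 0.133), Rasa4, a Ras GTPase-activating protein (26.5 ± 2.17 against 1.97 ± 0.256), Pld4, a lysosomal exonuclease of the phospholipase D family (30.5 ± 3.88 against 2.62 ± 0.434), and Apba1, an adaptor of the amyloid precursor protein (14.3 ± 1.25 against 0.924 ± 0.112).

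Among the marker lists of other cell types, limma called the greatest share in that of basophils, eosinophils and mast cells. Among 16 marker genes of basophils, eosinophils and mast cells, 10 were lower in GMP-MoP and 6 were not called, with a median log2 fold change of -1.27. Prg2, the eosinophil major basic protein, was at 12.8, 13 and 11 FPKM against 115, 105 and 77.9, and the eosinophil-associated ribonucleases Ear1 and Ear2 were at 2.60 ± 0.454 against 23.3 ± 5.81 and 2.47 ± 0.967 against 23.9 ± 9.41. The Ear genes are near-identical copies, so their separate values are uncertain. The 16 markers summed to 65.2 to 82.7 FPKM in GMP-MoP and 234 to 350.4 in proNeu1, groups that did not overlap. Part of these sums was Hdc, at 33.3 ± 8.09 against 73.3 ± 16.4 FPKM, which is also on the secondary and tertiary granule list. In proNeu1 the mean of Prg2 was greater than that of Hdc, at 99.6 ± 19.4 FPKM. Among 7 macrophage and stromal markers Slc40a1, the iron exporter ferroportin (6.07 ± 1.06 against 47.6 ± 3.36), and Vcam1, a vascular and stromal adhesion molecule (3.44 ± 0.954 against 11.7 ± 1.70), were lower. The complement gene C1qa, which marks macrophages, was low in both, at 0.321 ± 0.173 and 1.05 ± 0.130 FPKM. Adgre1, which encodes the macrophage antigen F4/80, was at 6.39 ± 1.54 against 2.79 ± 0.292 FPKM, with a log2 fold change of 0.95 that stayed under the fold threshold. With voom 1 of the 7 was called higher and 5 lower. The list summed to 17.6 to 24.5 FPKM in GMP-MoP and 65.5 to 75.9 in proNeu1. None of 16 erythroid and megakaryocyte markers was called by limma, 5 were lower at an unadjusted p under 0.05, and voom called 3 lower. Hba-a1 was at 14.1 ± 21.2 against 22.2 ± 32.6 FPKM, with the libraries numbered 2 far above the others. The part of these cell types in the neutrophil and monocyte gene differences was not tested.

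Of 10 lymphoid markers 1 was called. Jchain, the joining chain of secreted immunoglobulin A and M, was at 0.124, 0.605 and 0.0573 FPKM in GMP-MoP and 62.9, 50.7 and 20.1 in proNeu1, lower by 5.05 on the log2 scale (SE 0.42). The 74 immunoglobulin genes, looked at after their values were seen, had a median log2 fold change of -2.42 after LPS and -0.31 in naive mice, where 10 were called lower and 4 higher. In naive proNeu1 their summed FPKM was 267, 169.7 and 656. They took 0.0553 to 0.178% of the reads in LPS proNeu1 and 0.0164 to 0.0217% in LPS GMP-MoP. Immunoglobulin segments resemble each other, so reads shared between them make single values uncertain. Of 12 B cell and plasma cell genes looked for, some of them also on the lymphoid list, 5 were among the 11383. None of these was called by limma or voom, with 1 (Cd79b) higher and 1 (Xbp1) lower at an unadjusted p under 0.05. Cd79a, a chain of the B cell receptor, was at 0.0791, 0.267 and 0.0548 FPKM against 0.522, 1.08 and 0.205, Sdc1, the plasma cell antigen CD138, at 0.620, 0.616 and 0.506 against 0.555, 0.572 and 0.283, and Xbp1, the secretory cell factor, at 113 ± 6.87 against 132 ± 9.63. Cd79b, another chain of the B cell receptor, was higher in every GMP-MoP library, at 20.9, 22.8 and 18.9 FPKM against 12.3, 11.2 and 12.4. Its limma log2 fold change of 0.75 (adjusted p = 1.27e-05) stayed under the fold threshold.

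The naive comparison asked whether the difference after LPS was that of resting marrow. In naive mice GMP-MoP exceeded proNeu1 for 265 genes (2.33%) and was below it for 384 (3.37%), together 5.70% of those tested. Of the 300 genes higher after LPS, 216 were also higher in naive mice, 72.0% of the LPS list and 81.5% of the naive list. Of the 401 lower after LPS, 300 were also lower in naive mice, 74.8% of the LPS list and 78.1% of the naive list. The sign was the same in naive mice for 297 of the 300 and 379 of the 401 genes. No gene higher after LPS was called lower in naive mice, and 1 gene lower after LPS was called higher there, Mir199a-1, a microRNA gene. The log2 fold changes of the 2 comparisons correlated at 0.867 over 11383 genes, which are not independent replicates. Irf8 had 149 against 5.08 FPKM in naive mice and Camp 15.7 against 2509, so that their naive log2 fold changes of 4.65 and -7.32 stood beside 4.22 and -7.37 after LPS. Secondary and tertiary granule genes had a median of -3.37 in naive mice and -2.47 after LPS. For Lcn2 the values were -5.50 and -3.43, with 32.9 FPKM in naive GMP-MoP and 124 in LPS GMP-MoP. This difference of differences was 2.07, with an adjusted p of 0.122, and was not called.

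The interaction term tested each gene's LPS difference against its naive difference. It called 7 genes as higher (0.0615%) and 18 as lower (0.158%) of the 11383, together 0.220%, and 865 had an unadjusted p under 0.05. With the replicate number as a block the counts were 12 and 30. Without proNeu1 replicate 2 of the LPS group they were 25 and 18, without its replicate 3 they were 6 and 34, and without naive GMP-MoP replicate 3 they were 17 and 15. Of the 84 genes called higher after LPS and not in naive mice, 1 had a called interaction, and of the 101 called lower, 15 had. So for most of these genes a difference between LPS and naive mice was not shown. Of the 18 lower genes 14 were immunoglobulin genes, leaving Stfa1, Fah, Rbpms and Milr1. Milr1, an inhibitory receptor of mast cells, was at 42.1, 45.5 and 43.2 FPKM in LPS GMP-MoP and 13.1, 14 and 12.5 in LPS proNeu1, and at 28.7 and 3.66 in naive GMP-MoP and proNeu1. It was thus higher in GMP-MoP under both conditions, by 1.65 on the log2 scale after LPS and 2.66 in naive mice. Stfa1, a stefin of neutrophils, was at 4.36, 4.28 and 5.20 FPKM in LPS proNeu1 and 0.531, 0.705 and 1.23 in naive proNeu1, and at most 0.32 in any GMP-MoP library. The stefin A genes are close copies, so this value too depends on how shared reads were assigned.

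Among the 7 genes with a higher interaction term, Ifi30 was at 25.6, 41.0 and 32.5 FPKM in LPS GMP-MoP and 5.36, 6.18 and 9.39 in naive GMP-MoP, against 4.78, 5.48 and 5.55 in LPS proNeu1 and 2.24, 2.68 and 2.47 in naive proNeu1. Its excess in GMP-MoP was 2.42 on the log2 scale after LPS and 1.17 in naive mice, and the LPS and naive GMP-MoP libraries did not overlap. Plp2, a proteolipid of the endoplasmic reticulum, was at 28.2 ± 1.72 against 67.6 ± 17.7 FPKM after LPS, lower in GMP-MoP by 1.20 on the log2 scale, and lower by 2.41 in naive mice. Alox15, a lipoxygenase of eosinophils and macrophages, was at 0.399 ± 0.165 against 3.07 ± 0.476 FPKM after LPS and at 0.450 against 10.4 in naive mice. Car1, a carbonic anhydrase of red cell precursors and other cells, was at 0.983 ± 0.257 against 2.41 ± 0.476 FPKM after LPS and at 1.18 against 15.1 in naive mice. For both, GMP-MoP was low under both conditions and proNeu1 was lower after LPS than in naive mice in every library. Ccl6, a chemokine of myeloid cells, was at 10.2 ± 1.15 against 8.90 ± 0.645 FPKM after LPS, overlapping, and at 5.29 against 11.2 in naive mice. Aqp1 and Tubb2a were the others and were under 10 FPKM. Several of these calls were lost in other fits: voom on the recovered reads gave 1.83 on the log2 scale (adjusted p = 0.57) for Alox15, 2.30 (0.234) for Car1 and 1.15 (0.234) for Ifi30. A limma fit of the 4 compared groups alone gave an adjusted p of 0.118 for Ifi30, 0.131 for Plp2 and 0.306 for Ccl6, with log2 values of 1.24, 1.21 and 1.08. Ccl6 lost its call in 9 of the 12 fits that left out a single library (adjusted p of 0.0593 to 0.132), and also with a pseudocount of 0.1, with voom, under median-of-ratios scaling, at a mean of at least 5 FPKM and without both LPS libraries numbered 2. Milr1 was under the fold threshold in 6 of the 12 fits that left out a single library, at -0.86 without naive GMP-MoP replicate 3.

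**Figure D4:**
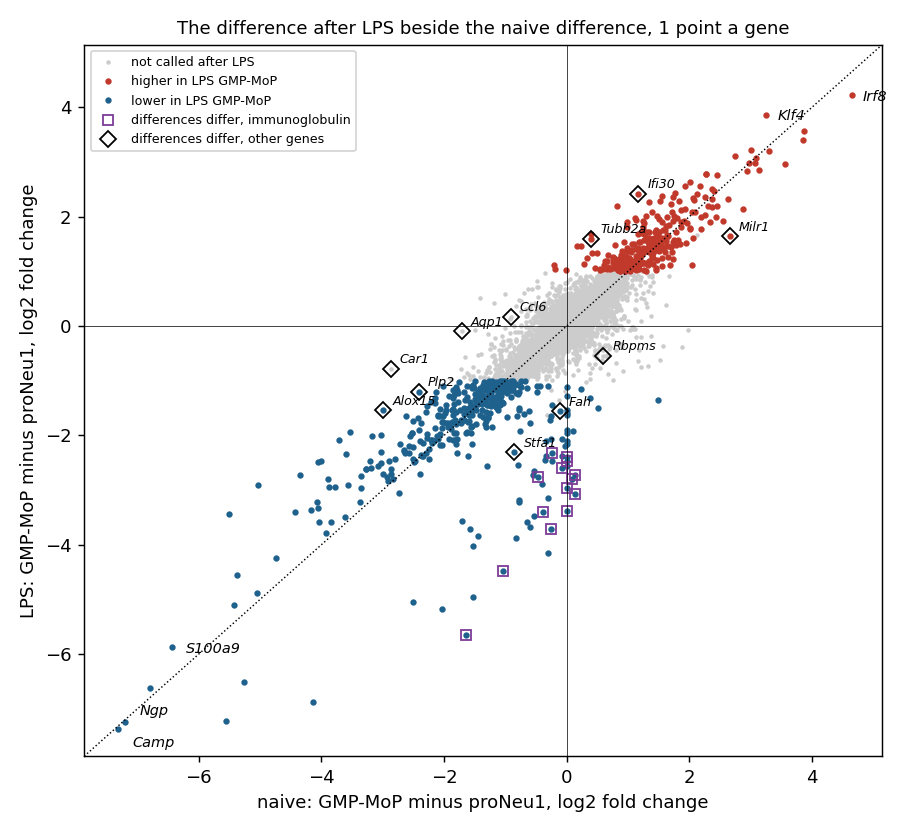
Each point is a gene, with the naive log2 fold change of GMP-MoP against proNeu1 on the horizontal axis and the LPS log2 fold change on the vertical axis, and the dotted line marking equal values. Irf8 and Klf4 lie at the upper right and Camp, Ngp and S100a9 at the lower left near the line, and 14 of the 25 genes whose differences differ (open symbols) are immunoglobulin genes below it.

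A last comparison placed the libraries on gene sets chosen between naive cMoP, the common monocyte progenitor, and naive proNeu2, a later neutrophil progenitor, populations that are in neither compared group. Of the 11383 genes tested, 1088 were higher in cMoP and 799 higher in proNeu2 by the same rule. The median log2(FPKM + 1) over the cMoP genes was 2.98, 3.04 and 2.92 in LPS GMP-MoP and 2.10, 2.09 and 2.07 in LPS proNeu1. Over the proNeu2 genes it was 2.84, 2.72 and 2.75 against 3.89, 3.97 and 3.75. The groups did not overlap on either set, and the naive libraries lay at 2.91 to 3.07 and 2.08 to 2.20 on the cMoP genes and at 2.81 to 2.88 and 3.96 to 4.01 on the proNeu2 genes. Of the 300 genes higher in LPS GMP-MoP, 292 were cMoP genes and 8 were in neither set. Of the 401 lower genes, 313 were proNeu2 genes, 3 were cMoP genes (S100a6, Pirb and Ighm) and 85 were in neither set, of which 62 were immunoglobulin genes. Of the 1088 cMoP genes 26.8% were called higher in LPS GMP-MoP, where 2.64% of all genes were. Of the 799 proNeu2 genes 39.2% were called lower, where 3.52% of all genes were.

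**Figure D5:**
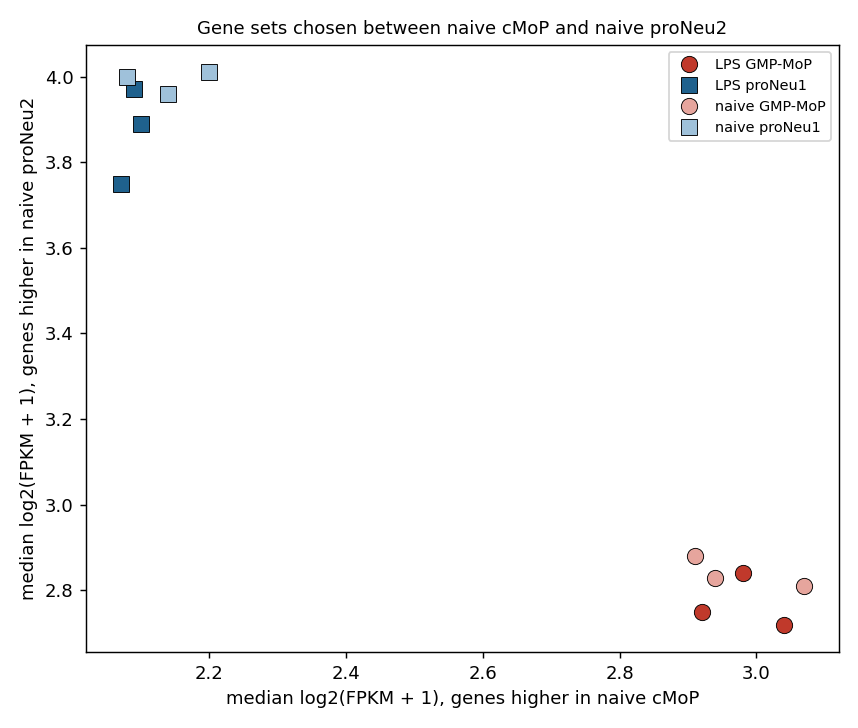
Each library's median log2(FPKM + 1) over 1088 genes higher in naive cMoP (horizontal) and over 799 genes higher in naive proNeu2 (vertical). The 3 LPS GMP-MoP libraries lie at 2.92 to 3.04 and 2.72 to 2.84, and the 3 LPS proNeu1 libraries at 2.07 to 2.10 and 3.75 to 3.97.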

How the data were processed

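RNA of sorted cells was sequenced in 30 libraries. Per the submitters' processing notes the tools were Trimmomatic 0.38.0, STAR 2.7.8 and featureCounts 2.0.1 and the build GRCm38/mm10. The annotation release and strand setting are not given in the sources used here. The authors deposited 1 table of FPKM for 11383 genes, whose lowest mean over the 30 libraries was 1.000, so weaker genes are not analysed here. With 1 exon length per gene and 1 total per library, the values of all 11383 genes were whole reads in all 30 libraries (within 0.02 reads or 1e-07 of the count, at most 0.1), which gave 23.6 to 41.3 M assigned reads. Reads carry no molecular identifiers, so depth covers counting error only.

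Groups came from the labels. The test was limma-trend (limma 3.58.1, R 4.3.3), fitted to log2(FPKM + 1) over all 30 libraries, 1 mean for each of 10 groups, with Benjamini-Hochberg adjustment over 11383 genes. A filter of 1 FPKM in 3 libraries removed 0 genes. Fold changes are on this log2 scale and understate those of low genes. In data simulated on 11325 genes, all 100 genes changed by 1.5 on the log2 scale and all 100 changed by 2.5 were called in the LPS comparison, with 0 false calls, and 99 and 97 of 100 in the interaction, with 1 false call. Only genes above a set mean level were changed, the groups did not otherwise differ, and the noise was normal and independent between libraries. The simulation therefore does not give the power for low genes, or the false calls where libraries deviate together. Same-numbered LPS GMP-MoP and proNeu1 libraries deviated together from their group means (correlations over genes of 0.263, 0.156 and 0.214), so the numbers may pair them. Differently numbered LPS libraries were at -0.179 to -0.0314. Deviations from a mean of 3 libraries sum to 0, which lowers these values. The main fit did not use the numbers. The labels do not say whether the numbers mark pairs. In naive mice the values were 0.186, 0.375 and 0.0973 for same numbers and -0.273 to 0.0968 for different numbers.

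Named genes were, in each direction, the 10 called genes that differed most and had at least 10 FPKM in their higher mean and no overlap, the 8 greatest each way for the interaction with at least 10 FPKM in 1 group mean (predicted and immunoglobulin genes left out of both), up to 4 called members of each of 31 gene lists, and a panel of 26 lineage genes. Genes named beyond these were chosen after their values were seen. A few genes that the rule would name are not reported here. The members and lists were chosen with earlier results of these data known. Coordinates are those of GENCODE M21 (GRCm38), and promoters are RefSeq's. Alternatives were a pseudocount of 0.1, median-of-ratios scaling, no filter, a mean FPKM of at least 5, the compared groups alone, a replicate block, voom on the recovered reads and each library left out. Leaving out both LPS libraries numbered 2, or immunoglobulin genes, was chosen after seeing the data. Tables and figures used Python 3.11.15, numpy 2.4.6, pandas 2.3.3 and matplotlib 3.10.9.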

Additional observations from a re-analysis of the deposited data

Results flagged for a closer look

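For 11 genes other than immunoglobulin genes, the difference between GMP-MoP and proNeu1 after LPS differed from that in naive mice by limma's interaction term. The difference of log2 fold changes was 2.09 for Car1, 1.61 for Aqp1, 1.45 for Alox15, 1.24 for Ifi30, 1.21 for Plp2, 1.20 for Tubb2a and 1.08 for Ccl6. It was -1.01 for Milr1, -1.14 for Rbpms, -1.45 for Fah and -1.47 for Stfa1. Adjusted p-values ran from 0.000254 for Fah to 0.0427 for Ccl6. Fah, a tyrosine catabolism enzyme, was at 2.16, 2.34 and 3.34 FPKM in LPS proNeu1 and at most 0.327 in the 9 other libraries of the 4 groups. Aqp1, a water channel, was at 2.83, 3.90 and 4.86 FPKM in naive proNeu1 and at most 0.757 in the other 9. Tubb2a, a beta-tubulin, was at 6.37, 6.64 and 6.13 FPKM in LPS GMP-MoP and at most 3.15 elsewhere. Rbpms, an RNA-binding protein, was at 1.11 to 1.34 FPKM in LPS GMP-MoP and 2.16 to 3.23 in naive GMP-MoP. Fah, Stfa1, Rbpms, Aqp1 and Tubb2a were named after their values were seen.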

How the results depend on the processing

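Of the 701 calls, 698 stood in the same direction with a pseudocount of 0.1, 695 with voom on the recovered reads, 700 with the replicate block, 662 under median-of-ratios scaling and 679 with the 2 LPS groups alone. A pseudocount of 0.1 gave 510 genes higher and 556 lower, and voom gave 559 and 564. A mean of at least 5 FPKM gave 174 and 252 of fewer genes tested, and median-of-ratios scaling gave 261 and 452, with a median log2 fold change of 0.01 over all genes. Leaving out 1 library gave 285 to 308 higher and 368 to 431 lower. In naive mice the higher genes numbered 159 at a mean of at least 5 FPKM, 478 with a pseudocount of 0.1 and 491 with voom. In the interaction the block from the replicate numbers gave 12 higher and 30 lower, and the block changed no count of the LPS comparison by more than 1 gene. The interaction counts were 16 higher without both LPS libraries numbered 2, 4 with the compared groups alone, 3 higher and 2 lower at a mean of at least 5 FPKM, 4 and 4 with voom, and 4 lower without immunoglobulin genes. Leaving out 1 library gave 5 to 25 higher and 12 to 34 lower, and the cause was not tested. Kit (-0.06, not called) ran from -0.13 without LPS GMP-MoP replicate 1 to 0.01 without LPS proNeu1 replicate 1. The difference on the cMoP genes was 0.89, 1.01 with a pseudocount of 0.1 and 0.83 as a mean. Of 99 named genes, 93 to 99 kept the same call in each alternative, with 90 measured at a mean of at least 5 FPKM.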
